A study of Mus musculus with 8 samples.

Results

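Interferon-stimulated effector genes encode the proteins that carry out the antiviral program of a cell, and 34 of them were followed here in cultured mouse MDSCs (myeloid-derived suppressor cells), which are immature and known for restraining T cells. The 34 genes were taken from a list of type I interferon-stimulated effectors and were matched by Ensembl identifier to a table of 26930 genes. That list leaves out the interferon regulatory factors, the GBP and IRG families of inducible GTPases and many nucleic acid sensors. It keeps the Mx GTPases and genes of RNA-sensing enzymes such as Eif2ak2 and Oas1a. All 34 had enough counts to be among the 12852 genes tested. The cells came from C57BL/6 bone marrow grown with GM-CSF and IL-6, each at 40 ng/ml, and were moved on day 4 into medium conditioned by TRAMP-C1 cells, a mouse prostate tumour line. The labels call them senescent-like and name no sorting step, so each library is a whole culture. Poly(A) RNA was sequenced from 4 libraries of untreated cells and from 4 libraries of cells given 0.5 µM Romidepsin for 6 h, an inhibitor of histone deacetylases (HDACs), the enzymes that remove acetyl groups from histones and other proteins. Both groups share the cytokines and the conditioned medium. Nothing in the labels says that the replicates are separate mice or cultures, and a p-value here reflects the spread among the libraries alone. The genes Ifi202b and Trim12a were detected in replicate numbers 1 and 3 of both groups and had 0 counts in numbers 2 and 4. That difference is larger than repeat sequencing of 1 source would give. What the numbers stand for is not given in the sources used here. Whether all libraries share the stated C57BL/6 background was not tested.

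Type I interferons bind the receptor pair IFNAR1 and IFNAR2, whose kinases JAK1 and TYK2 phosphorylate STAT proteins. With IRF9 these form ISGF3, the transcription factor that binds the interferon-stimulated response element (ISRE) at effector genes. The induced proteins bind or degrade viral RNA, block translation, attach the ubiquitin-like protein ISG15 to targets or hold virus particles at membranes. HDAC activity is known to be needed for full transcription of many of these genes, and myeloid cells can make a low level of interferon beta without infection.

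The promoter letters of the members were searched for the core of that response element close to the start. RefSeq promoter windows on GRCm38.p6, each from 250 bases before to 50 bases after an annotated start, were found for 25 of the 34 genes; Ifi204, Ifi27l2a, Mx1, Mx2, Oas2, Parp14, Parp9, Rtp4 and Usp18 had none. The ISRE core, written here as GAAA and a second GAAA with any 2 bases between them and searched on both strands, was present in 12 of the 25, against 3.99% of the 27025 genes with a window and 3.44% of all 32851 windows of that length. The 12 were Bst2, Eif2ak2, Ifi205, Ifit1, Ifit3, Ifit3b, Ifitm3, Isg15, Oas1a, Oas3, Rsad2 and Trim30a. The core of the gamma-activated sequence, TTC and GAA with any 3 bases between them, a palindrome that can overlap the ISRE core by a few bases as it does in Bst2, was in 7 of the 25, against 9.55% of genes and 8.3% of windows. The 7 stretches of 80 bases below are shown because they hold matches upstream of the start, in the IFIT relatives and in genes with both large and small changes. They are printed 5′ to 3′ on the strand of the gene, with ISRE core matches in capitals.
Ifit1 (chr19:34640759-34640838, plus strand): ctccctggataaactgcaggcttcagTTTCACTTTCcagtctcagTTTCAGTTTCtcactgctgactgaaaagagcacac
Ifit3 (chr19:34583355-34583434, plus strand): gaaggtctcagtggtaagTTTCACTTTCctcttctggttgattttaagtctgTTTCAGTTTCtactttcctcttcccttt
Ifit3b (chr19:34607751-34607830, plus strand): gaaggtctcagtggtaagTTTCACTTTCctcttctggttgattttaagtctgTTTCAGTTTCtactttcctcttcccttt
Isg15 (chr4:156200846-156200925, minus strand): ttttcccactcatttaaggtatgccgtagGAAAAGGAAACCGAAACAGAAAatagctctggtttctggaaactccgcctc
Oas3 (chr5:120777690-120777769, minus strand): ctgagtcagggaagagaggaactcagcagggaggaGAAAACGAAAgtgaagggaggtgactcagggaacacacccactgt
Bst2 (chr8:71537555-71537634, minus strand): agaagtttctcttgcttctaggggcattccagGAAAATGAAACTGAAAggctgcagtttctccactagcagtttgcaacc
Rsad2 (chr12:26456528-26456607, minus strand): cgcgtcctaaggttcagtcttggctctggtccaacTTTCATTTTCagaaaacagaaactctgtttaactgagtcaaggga
The Ifit3 and Ifit3b stretches are the same letter for letter, with 0 of 80 bases differing. The upstream parts of their windows were 86.2% identical over 218 bases aligned without gaps at the best offset. In Isg15 the 3 matches overlap in 1 run of capitals, and in Bst2 the 2 matches do. Rsad2 holds 1 match, from 120 to 111 bases before the start. Among the genes with a window, log2 fold changes were taken between treated and untreated libraries of the same replicate number. The median was −1.85 over the 12 with a match and −2.36 over the 13 without, with ranges from −2.65 to 0.59 and from −3.50 to −0.34. Variant forms of the element and sites outside the windows were not searched, so the 13 are not shown to lack it. In Eif2ak2 and Ifitm3 the matches lay only after the start.

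After 6 h of Romidepsin, RNA of the antiviral effectors was lower across nearly the whole list. The estimated fold change was negative for 33 of the 34 genes, and the exception was Rsad2, which encodes viperin. The median log2 fold change (treated over untreated) was −1.78, against 0.01 over all genes tested. Levels are CPM, read counts relative to library size, scaled by edgeR's TMM method, and a gene is said to have fallen or risen where edgeR's quasi-likelihood test gave a Benjamini-Hochberg adjusted p under 0.05 over all genes tested. With the libraries treated as unpaired, 10 of the 34 fell and 0 rose, while 16.2% of all genes tested fell and 20.3% rose. DESeq2's Wald test called 22 lower and 0 higher (21.7% and 21.9% of all genes). The 10 were Eif2ak2, Oas1a, Oas2, Oasl2, Herc6, Parp9, Parp14, Dtx3l, Trim30a and Rtp4. In these bulk libraries, fewer cells of a type and less RNA per cell cannot be told apart.

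The libraries carry replicate numbers 1 to 4 in both groups, and libraries of the same number deviated together, so a fit with the number as a block (called paired below) compares each treated library with its own partner. In the paired fit 32 of the 34 genes fell and 0 rose, while 20.8% of all genes tested fell and 21.2% rose. Ifit2 and Rsad2 were the genes that did not pass. The median log2 fold change was −2.10 in the paired fit, against 0.01 over all genes. The unpaired count rested on single libraries. It was 31 without treated replicate 3 (23.4% of all genes fell) and 15 without untreated replicate 1 (13.4%). Without untreated replicates 2, 3 and 4 it was 6 (11.1%), 2 (9.66%) and 5 (13.6%), and without treated replicates 1, 2 and 4 it was 6 (9.49%), 4 (10.1%) and 1 (9.07%). Leaving out both libraries of number 3 gave 25 (19.2%). Scaled to 20 housekeeping genes, which moved the median of all genes to 0.75, 7 members fell in the unpaired fit (4.72% of all genes) and 22 in the paired fit (7.7%). Rsad2 then rose in the paired fit (log2 fold change 1.32, adjusted p = 0.0374), as did 47.7% of all genes.

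**Figure D1:**
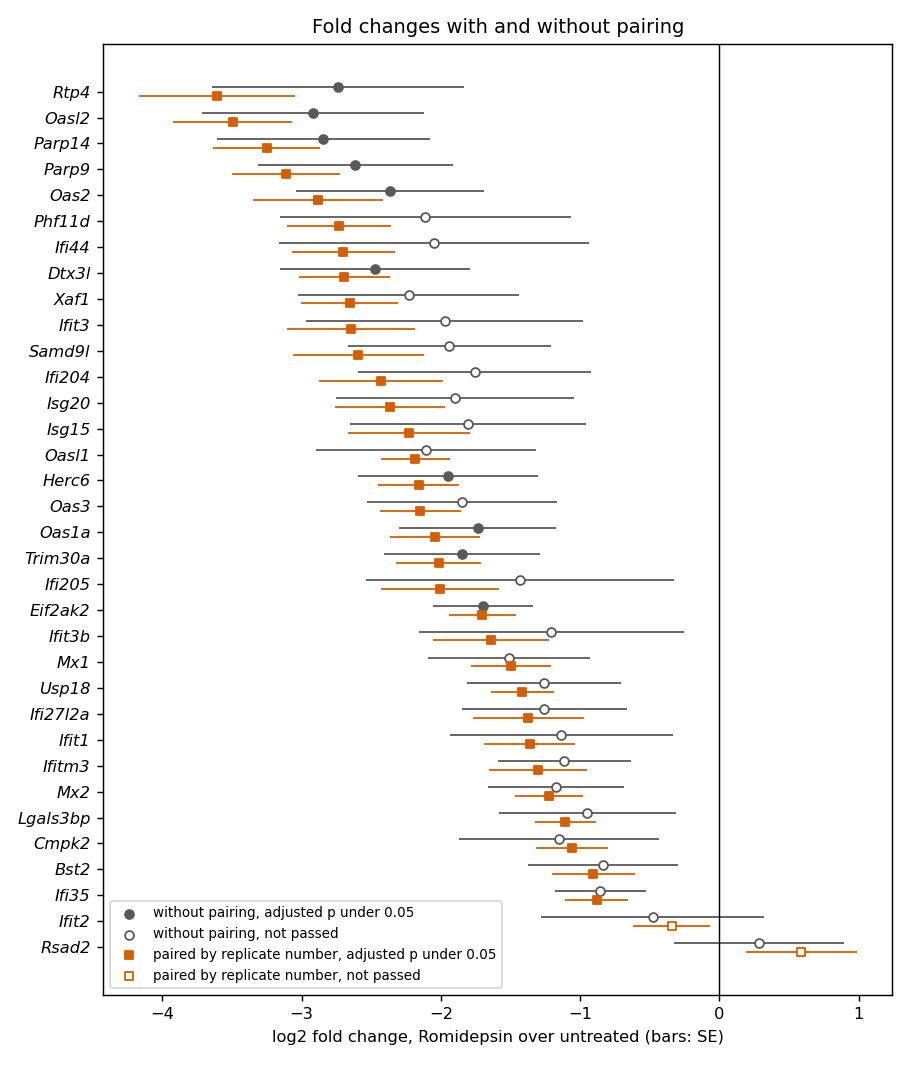
Log2 fold change of each of the 34 genes, Romidepsin over untreated, on the x axis, with bars for the standard error; grey circles are the fit without pairing and orange squares the fit paired by replicate number, filled where the adjusted p was under 0.05. Estimates of 33 genes lie left of 0 in both fits on the TMM scale and Rsad2 lies right of it, with shorter bars in the paired fit for most genes; with housekeeping scaling the unpaired estimate of Ifit2 is also above 0.

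Libraries of the same group differed more for these genes than for most others. The lowest and highest untreated libraries differed by a median of 4.24-fold over the 34 genes, against 1.69-fold over the tested genes with a count in every untreated library. Treated libraries spread wider, by a median of 9.39-fold over the 34 against 1.74-fold over the genes with a count in every treated library. Untreated replicate 1 was the lowest of the untreated libraries for 33 of the 34 genes, which was so for 26% of all genes tested, and Ifitm3 was the exception. Untreated replicate 3 was the highest for 28 of the 34, against 16.7% of all genes. Summed over the 34 genes, untreated replicates 1 to 4 held 6489, 15845, 24382 and 15667 CPM, and treated replicates 1 to 4 held 2255, 4090, 13461 and 5487 CPM. That is 0.649% to 2.44% of the scaled counts without the drug and 0.225% to 1.35% with it. Treated replicate 3 held more of these RNAs than untreated replicate 1 did for 28 of the 34 genes (50.5% of all genes), so that the groups overlapped for most members although the treated partner was the lower one of its pair.

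**Figure D2:**
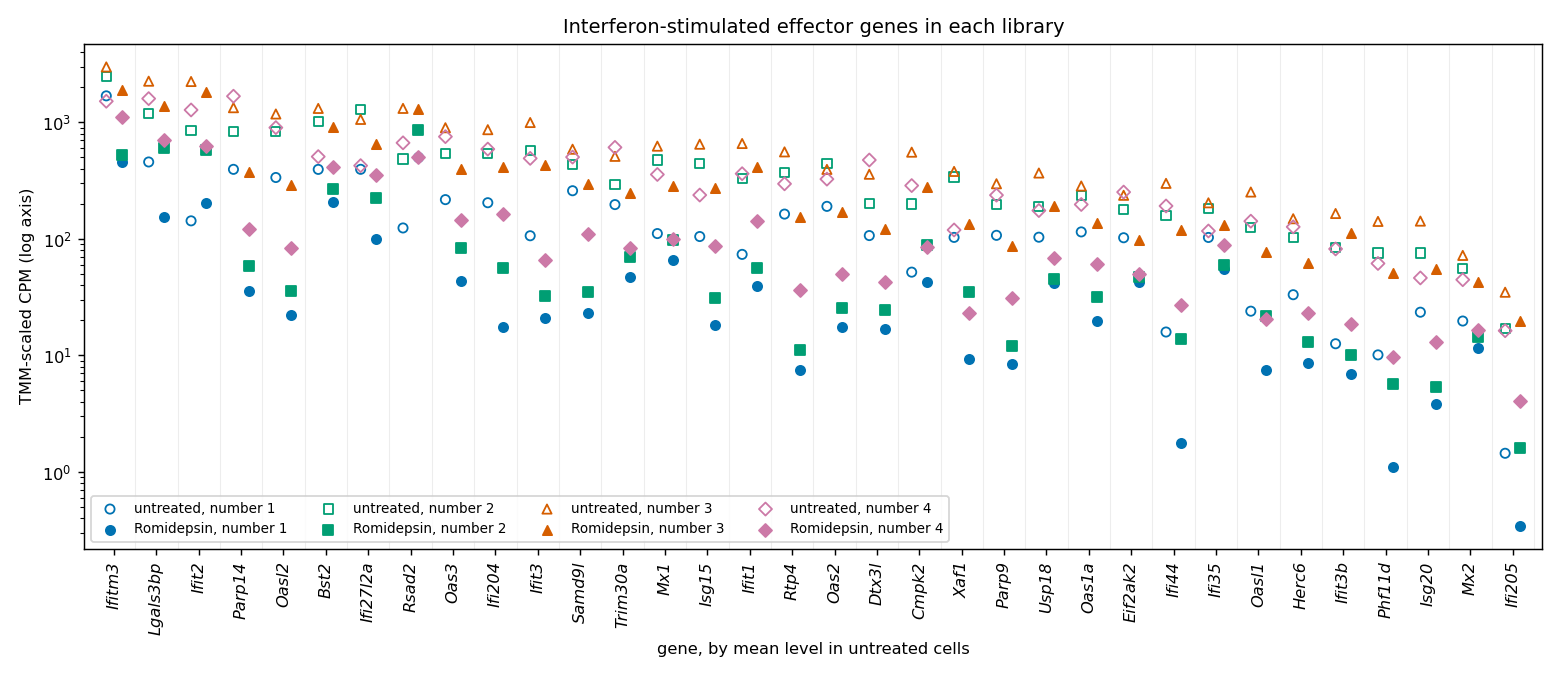
TMM-scaled CPM of the 34 genes (log axis) in each library, ordered by mean level in untreated cells; open symbols are untreated and filled symbols Romidepsin-treated libraries, with shape and colour giving the replicate number. Treated replicate 3 is the highest treated library and treated replicate 1 the lowest for all 34 genes, and untreated replicate 1 is the lowest untreated library for 33.

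Within the treated group the order of the libraries was the same for nearly every member. Treated replicate 3 was the highest and treated replicate 1 the lowest for 34 of 34 genes, against 36.8% and 24.5% of all genes tested. Taken pair by pair, 32 of the 34 genes were lower in 4 of 4 pairs, against 29.5% of all genes. The median log2 ratio over the 34 genes (CPM plus 0.5, treated over untreated) was −2.02, −2.90, −1.09 and −1.99 for numbers 1 to 4. Number 3 gave the smallest change. The same held for genes at large: the median absolute log2 ratio over all tested genes was 0.693, 0.814, 0.395 and 0.638. Treated and untreated libraries did not overlap for 6 of the 34 genes, all lower in treated cells, against 16.5% of all genes, and 0 were separate in the other direction (18.7%). These were Eif2ak2, Oas2, Oasl2, Parp9, Parp14 and Rtp4. Without treated replicate 3 the groups were separate for 25 (25% of all genes), and without untreated replicate 1 for 19 (20.4%). Those libraries were picked from these same values, and leaving out a library can only keep or raise such a count. The other libraries were not left out in turn for this count.

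**Figure D3:**
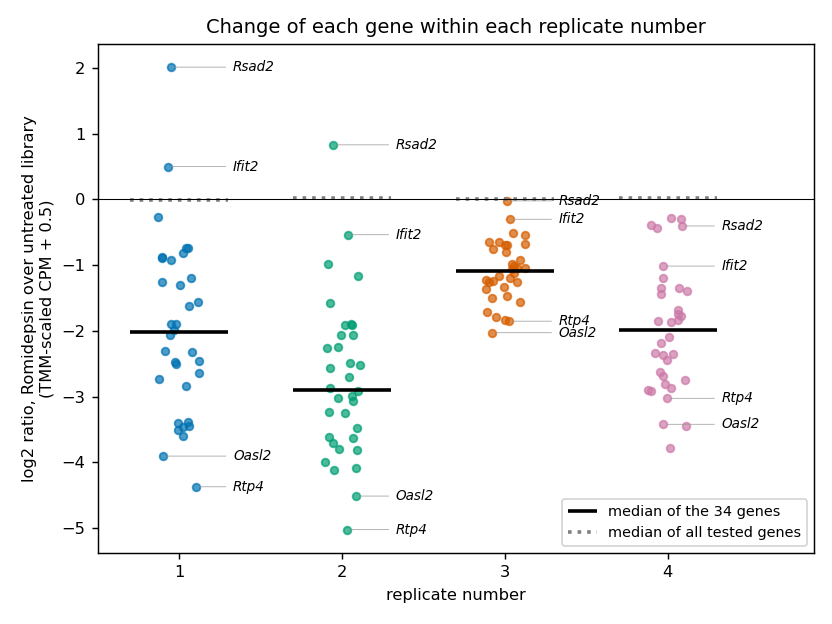
Log2 ratio of the treated over the untreated library (TMM-scaled CPM plus 0.5) for each of the 34 genes within each replicate number, with the median of the 34 as a black bar and of all tested genes as a dotted line. The medians of the 34 are −2.02, −2.90, −1.09 and −1.99; Rsad2 is the highest gene of numbers 1, 2 and 3, and Rtp4 the lowest of numbers 1 and 2.

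The ADP-ribosylation and ubiquitin enzymes fell as a group, 4 of 4 in both fits. PARP14 and PARP9 are macro-domain ADP-ribosyltransferase family proteins, and DTX3L is the ubiquitin ligase that binds PARP9. Parp14 (chr16:35832874-35871544) measured 395, 830.4, 1336 and 1677 CPM in untreated replicates 1 to 4 and 35.7, 58.6, 375 and 121 CPM in treated replicates 1 to 4. Every treated library lay below every untreated one, with treated replicate 3 just under untreated replicate 1 (log2 fold change −2.84 ± 0.77, SE, adjusted p = 0.0201). Parp9 held 107, 198, 297 and 237 CPM without and 8.37, 11.9, 86.0 and 31.0 CPM with Romidepsin, in the order of the numbers. Its groups were also separate (−2.61 ± 0.70, adjusted p = 0.02). Dtx3l was at 107, 201, 358 and 475 CPM and at 16.7, 24.4, 121 and 42.9 CPM. Here treated replicate 3 exceeded untreated replicate 1, and the other libraries of the groups were apart (−2.47 ± 0.68, adjusted p = 0.0217). Parp9 and Dtx3l overlap on opposite strands and share 8.43% and 7.26% of the 75-base stretches of their transcripts with each other or with another gene, 75 being the cycles of the sequencing kit. The strand setting of the counting is not given in the sources used here, so reads of the overlap cannot be told apart. Trim30a, a TRIM ubiquitin ligase known for damping Toll-like receptor signalling, went from 197, 292, 511 and 609.7 CPM to 46.8, 69.6, 248 and 83.3 CPM. Only treated replicate 3 of the treated libraries was above untreated replicate 1 (−1.85 ± 0.56, adjusted p = 0.0313).

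All 5 oligoadenylate synthetase family genes fell in the paired fit, and Oas1a, Oas2 and Oasl2 also in the unpaired one. OAS proteins sense double-stranded RNA and answer it by making 2′-5′ oligoadenylates, while the OASL proteins are relatives of which OASL1 is known to repress translation of IRF7. Oasl2 (chr5:114896936-114912234) measured 336, 832, 1180 and 901 CPM in the untreated libraries and 22.0, 36.0, 289 and 83.7 CPM in the treated ones. It had the lowest unpaired fold change of the 34 genes and no overlap between the groups (−2.92 ± 0.80, adjusted p = 0.021, and −3.50 ± 0.43 paired). Oas2 stood at 189.9, 442, 394 and 326 CPM and at 17.6, 25.6, 169 and 50.2 CPM, again without overlap (−2.37 ± 0.68, adjusted p = 0.0248). Oas1a showed 115, 236, 284 and 197 CPM and 19.7, 31.8, 138 and 60.8 CPM. Its treated replicate 3 was above untreated replicate 1 (−1.74 ± 0.57, adjusted p = 0.0396), and 47.6% of its 75-base stretches occur in Oas1g, so reads could be divided between them. Oas3, whose stretch above holds a single ISRE core match, held 217, 540.5, 899 and 754 CPM and 43.4, 82.8, 399 and 146 CPM. Treated replicate 3 was higher than untreated replicate 1, and the gene did not pass unpaired (adjusted p = 0.0598) but did paired (−2.15 ± 0.29, adjusted p = 0.00264). Oasl1 ran from 23.9 to 252 CPM without and from 7.40 to 76.5 CPM with the drug, and passed paired (−2.18 ± 0.24, adjusted p = 0.00168) but not unpaired (adjusted p = 0.0625).

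Among the proteins that bind RNA and block translation, the kinase gene Eif2ak2 fell with the narrowest spread and the 4 IFIT genes parted ways. Eif2ak2 encodes PKR, which stops translation by phosphorylating eIF2α on sensing double-stranded RNA. Eif2ak2 (chr17:78852564-78882573) measured 102, 179.8, 236 and 252 CPM without and 42.4, 47.3, 98.6 and 49.4 CPM with Romidepsin in replicates 1 to 4. The highest treated library was just under the lowest untreated one (−1.70 ± 0.36, adjusted p = 0.00801). It had the smallest unpaired p of the 34 genes, though not the smallest paired one, and passed in all 23 alternative fits, with log2 fold changes from −2.09 to −0.96.

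The IFIT genes lie side by side on chromosome 19 and encode tetratricopeptide repeat proteins that bind viral RNA ends or assist one another in doing so. Ifit3 held 106, 573, 997 and 491 CPM in untreated and 20.8, 32.5, 434 and 65.5 CPM in treated replicates 1 to 4. Treated replicates 1, 2 and 4 were below every untreated library and treated replicate 3 was not, so Ifit3 passed paired (−2.65 ± 0.46, adjusted p = 0.00485) but not unpaired (−1.97 ± 0.99, adjusted p = 0.143). Ifit1 was at 73.5, 331, 658 and 362 CPM and 39.6, 55.6, 412 and 142 CPM. Treated replicate 3 was above untreated replicates 1, 2 and 4, and treated replicate 4 was above untreated replicate 1. Each treated library was below its partner (−1.36 ± 0.33 paired, adjusted p = 0.0144, and adjusted p = 0.283 unpaired). Ifit3b showed 12.6, 83.6, 165 and 81.8 CPM and 6.88, 10.1, 113 and 18.7 CPM. Treated replicate 3 again lay above untreated replicates 1, 2 and 4, and treated replicate 4 above untreated replicate 1 (−1.64 ± 0.42 paired, adjusted p = 0.0179, and adjusted p = 0.334 unpaired). Of the 75-base stretches of Ifit3b 35.7% are found in Ifit3, and 41.1% of those of Ifit3 are found in Ifit3b. Ifit2 (chr19:34550694-34576419) stood apart at 143, 846, 2243 and 1278 CPM and 202, 582, 1819 and 632 CPM. Its treated library was above its partner in number 1 and below it in numbers 2, 3 and 4, and neither fit called it (−0.48 ± 0.80, adjusted p = 0.654, and −0.34 ± 0.28, adjusted p = 0.341 paired). With housekeeping scaling its estimates were 0.10 unpaired and 0.39 paired.

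Rsad2 and Cmpk2 are neighbours with linked products: viperin, the Rsad2 product, converts CTP to a chain-terminating nucleotide, and CMPK2 is a nucleotide kinase able to supply CTP. Rsad2 (chr12:26442746-26456452, minus strand) measured 124, 484, 1318 and 667 CPM in untreated and 501, 860.3, 1296 and 504 CPM in treated replicates 1 to 4. It was higher with Romidepsin in numbers 1 and 2, close to equal in number 3 and lower in number 4, and the groups overlapped. Neither fit called it (0.29 ± 0.61, adjusted p = 0.729, and 0.59 ± 0.40, adjusted p = 0.263 paired), and its unpaired estimate was −0.07 without untreated replicate 1 and −0.10 without treated replicate 3. Cmpk2 (chr12:26469204-26479837, plus strand) was at 51.7, 199, 555 and 286 CPM and 42.9, 88.2, 276 and 85.1 CPM. It was lower in 4 of 4 pairs, and fell paired (−1.05 ± 0.26, adjusted p = 0.0155) but not unpaired (−1.15 ± 0.72, adjusted p = 0.227). Isg20, an RNA exonuclease gene, ran from 23.4 to 142 CPM without and from 3.84 to 54.7 CPM with the drug, and passed paired (−2.36 ± 0.39, adjusted p = 0.00425) but not unpaired (adjusted p = 0.107).

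Genes that lie side by side share much of their surroundings, and a ratio of read counts within a library needs no scaling. The 34 genes hold 13 pairs within 100000 bp of each other on 1 chromosome, and this rule was chosen after their values were seen, so the ratios are a description with no test. The pairs are not independent, since 6 of them come from the 4 IFIT genes. In 9 of the 13 the treated and untreated ratios did not overlap, against 37.9% of the 26215 pairs of tested genes within that distance that had counts in every library. The log2 ratio of Rsad2 to Cmpk2, whose starts face away from each other across 12752 bp, was 1.26, 1.28, 1.25 and 1.22 in untreated and 3.55, 3.29, 2.23 and 2.57 in treated replicates 1 to 4. The untreated ratio hardly varied (SD 0.03, n = 4) although Rsad2 spanned 124 to 1318 CPM and Cmpk2 51.7 to 555 CPM over those libraries, and 0.0267% of the background pairs had an SD as small. The treated ratios were all higher, by 1.65 on average. Differences of at least that size were found in 25.1% of the background pairs.

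The ratio of Ifit2 to each of its IFIT neighbours was higher in every treated library than in any untreated one. The log2 ratio of Ifit2 to Ifit3, 7112 bp apart, was 0.42, 0.56, 1.17 and 1.38 in untreated and 3.28, 4.17, 2.07 and 3.27 in treated replicates, a mean difference of 2.31. Against Ifit3b the mean difference was 1.31 and against Ifit1 1.03. The mean log2 ratio of Ifit3 to Ifit3b was 2.76 in untreated and 1.76 in treated libraries, and that of Ifit3 to Ifit1 was 0.59 and −0.69. The Ifit3 to Ifit3b ratio was 3.08, 2.78, 2.60 and 2.58 in untreated and 1.60, 1.68, 1.94 and 1.81 in treated replicates and these values depend on how the counting divided the reads that the pair shares. The ratio of Oasl2 to Oasl1 was lower with the drug (mean difference −1.30), as were those of Oas2 to Oas3 (−0.72) and of Parp14 to Dtx3l (−0.54), each without overlap. For Oas2 to Oas3 the groups nearly touched, at −1.21 for the lowest untreated and −1.24 for the highest treated library. Untreated replicates 1 and 2 lay apart from the rest, at −0.19 and −0.29. The ratios of Parp14 to Parp9, Dtx3l to Parp9, Mx1 to Mx2 and Ifit3b to Ifit1 overlapped between groups.

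**Figure D4:**
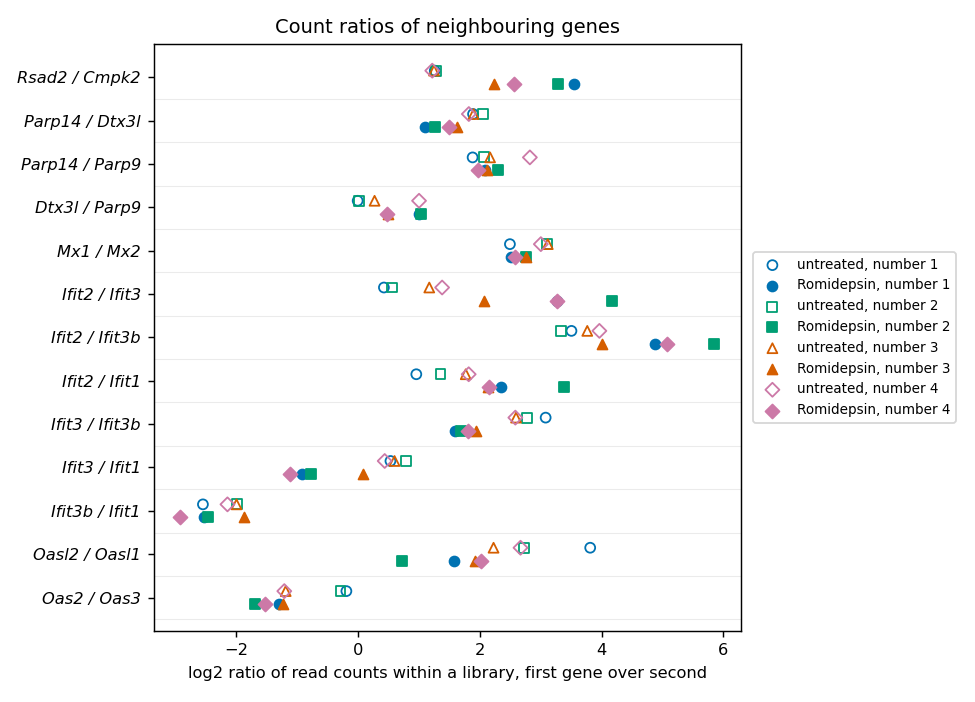
Log2 ratio of read counts within each library (x axis) for the 13 pairs of members within 100000 bp, first gene over second; open symbols are untreated and filled symbols treated libraries, with shape and colour giving the replicate number. The 4 untreated Rsad2 to Cmpk2 ratios coincide between 1.22 and 1.28 and the treated ones lie between 2.23 and 3.55.

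The ISG15 system fell in the paired fit, 3 of 3 genes, and Herc6 in both fits. ISG15 is a ubiquitin-like protein, HERC6 the mouse ligase that attaches it and USP18 the protease that removes it and also restrains interferon receptor signalling. Isg15 (chr4:156199424-156200818), with its 3 overlapping ISRE core matches, measured 105, 441, 649 and 238 CPM without and 18.4, 31.2, 273 and 87.1 CPM with Romidepsin. Treated replicate 3 was above untreated replicates 1 and 4, and the other treated libraries were below all untreated ones (−2.23 ± 0.44 paired, adjusted p = 0.00716, and adjusted p = 0.119 unpaired). Herc6 held 33.1, 102, 149 and 127 CPM and 8.54, 13.02, 61.8 and 22.97 CPM. Only treated replicate 3 was above untreated replicate 1 (−1.95 ± 0.65, adjusted p = 0.0428), and Herc6 shares 22.4% of its stretches with Gm45193, which it overlaps on the same strand. Usp18 ran from 103 to 367 CPM and from 41.6 to 193 CPM (−1.41 ± 0.23 paired, adjusted p = 0.0038, and adjusted p = 0.1 unpaired). The partner genes of this system behaved likewise: Uba7, the activating enzyme, ran from 109 to 347 CPM without and from 12.2 to 151 CPM with the drug, and fell paired (−2.52 ± 0.43, adjusted p = 0.00464) but not unpaired (adjusted p = 0.0618). Ube2l6, the conjugating enzyme, gave −2.24 ± 0.38 paired (adjusted p = 0.00443, and 0.0879 unpaired).

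Proteins that hold viruses at membranes include the most abundant members per length of RNA. Per kilobase of exon, Ifitm3 led the untreated cells with 3206 ± 1022 CPM per kb (SD, n = 4), followed by Ifi27l2a with 1712 ± 976, Bst2 with 895 ± 479, Lgals3bp with 484 ± 265 and Isg15 with 474 ± 315. The ranges of mean ± SD overlap between neighbours in this order. Ifi205 was the lowest at 4.15 ± 3.27. Ifitm3 encodes a membrane protein that blocks virus fusion, and measured 1689, 2495, 2993 and 1518 CPM and 454, 525, 1915 and 1119 CPM. Treated replicate 3 was above untreated replicates 1 and 4, and the gene fell paired (−1.30 ± 0.35, adjusted p = 0.0216) but not unpaired (adjusted p = 0.0926). Bst2 encodes tetherin, which ties budding virus to the cell, and stood at 394, 1014, 1317 and 508 CPM and 208, 269, 921 and 413 CPM. Its change was among the smallest, with overlap through treated replicates 3 and 4 (−0.90 ± 0.30 paired, adjusted p = 0.0419, and −0.84 ± 0.54, adjusted p = 0.238 unpaired). Rtp4, a chaperone gene for cell-surface receptors, had the lowest paired fold change of the list. It held 163, 373, 558 and 297 CPM and 7.40, 10.99, 154 and 36.0 CPM, with treated replicate 3 just under untreated replicate 1 (−2.74 ± 0.91, adjusted p = 0.0418 unpaired, and −3.61 ± 0.56, adjusted p = 0.00373 paired); 12.4% of its stretches occur in Gm45338. Samd9l, which encodes a translation-restricting protein, ran from 259 to 588 CPM and from 22.9 to 298 CPM (−2.59 ± 0.47 paired, adjusted p = 0.00557, and 0.0631 unpaired).

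The remaining members passed in the paired fit and not in the unpaired one, each lower in 4 of 4 pairs. The Mx genes encode dynamin-like GTPases that trap viral nucleocapsids, and C57BL/6 mice are known for carrying a defective Mx1 allele. Which allele these libraries carry was not tested. Mx2 is annotated as a polymorphic pseudogene on GRCm38. Mx1 gave −1.50 ± 0.29 and Mx2 −1.22 ± 0.24 paired (adjusted p = 0.00665 and 0.00748, and 0.0686 and 0.085 unpaired). The PYHIN genes Ifi204 and Ifi205, members of a family of nuclear and cytosolic DNA-binding proteins, gave −2.43 ± 0.44 and −2.005 ± 0.43 (adjusted p = 0.00571 and 0.00923). Ifi204 shares 20.7% of its stretches with Ifi211, Mndal and Ifi207, and Ifi205 was low, at 0.344 to 34.8 CPM over all libraries. Phf11d, a PHD finger gene, gave −2.73 ± 0.37 (adjusted p = 0.00267). Xaf1, whose product binds the apoptosis inhibitor XIAP, gave −2.65 ± 0.35 (adjusted p = 0.00248), and its unpaired adjusted p was 0.0529. Ifi44 gave −2.70 ± 0.37 (adjusted p = 0.00271).

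Ifi27l2a, Lgals3bp and Ifi35 likewise passed in the paired fit alone. Ifi27l2a, whose product sits in mitochondrial or nuclear membranes, measured 395, 1290, 1060 and 425 CPM and 99.2, 224, 653 and 351 CPM. Untreated replicates 1 and 4 were low and lay within the range of the treated libraries (−1.37 ± 0.40 paired, adjusted p = 0.028). Lgals3bp, which encodes a secreted galectin-binding glycoprotein, was at 457, 1195, 2257 and 1599 CPM and 155, 606, 1394 and 700.5 CPM. Untreated replicate 1 lay below treated replicates 2, 3 and 4, and untreated replicate 2 below treated replicate 3 (−1.10 ± 0.22 paired, adjusted p = 0.00754). Ifi35, whose product pairs with NMI, was at 103, 181, 204 and 117 CPM and 54.9, 60.0, 130.1 and 88.6 CPM. Treated replicate 3 was above untreated replicates 1 and 4 (−0.88 ± 0.23 paired, adjusted p = 0.0187).

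Upstream of these effectors, the interferon transcript itself was scarce. Of 21 listed ligand genes 6 were in the table, and Ifnb1, which encodes interferon beta, had enough counts to be tested. Ifnb1 was at 0.0799, 1.24, 4.19 and 0.967 CPM in untreated and 0, 0, 0.794 and 0.0647 CPM in treated replicates 1 to 4. It was highest in number 3 of each group, and a link to the effector levels was not tested. Ifnb1 fell paired (−3.27 ± 0.68, adjusted p = 0.00849) but not unpaired (−2.89 ± 1.27, adjusted p = 0.0999). These values rest on 0 to 51 reads a library, and the 0 in treated replicates 1 and 2 allows up to 0.172 and 0.191 CPM at 3 counts. No other listed ligand exceeded 0.318 CPM in any library.

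Of the 7 receptor and JAK genes, 3 fell in both fits. Ifnar2 was at 145, 166, 179.8 and 160.4 CPM and 60.2, 60.6, 114 and 84.6 CPM, with the groups apart (−1.02 ± 0.23, adjusted p = 0.00956). Ifngr2, a subunit of the interferon gamma receptor, gave −1.01 ± 0.19 (adjusted p = 0.00513) and Jak2 −0.50 ± 0.13 (adjusted p = 0.019). Ifnar1 was at 221, 225, 227 and 291 CPM and 180, 228, 291 and 249 CPM. The groups overlapped and its estimate was near 0 (−0.02 ± 0.20, adjusted p = 0.931), turning to 0.67 with housekeeping scaling. Jak1 did not pass in either fit (0.36 ± 0.27, adjusted p = 0.312).

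The factors that read the signal differed in how firmly they fell. Of 10 STAT and IRF genes 3 fell unpaired, against 7 paired, and Irf4 rose paired (0.97, adjusted p = 0.0434). Irf9, the DNA-contacting subunit of ISGF3, was at 132, 142, 164 and 149 CPM and 26.5, 26.9, 74.4 and 33.8 CPM. The untreated libraries were alike, unlike those of the effectors, and all treated ones were lower (−1.86 ± 0.33, adjusted p = 0.00436), though Irf9 overlaps Rnf31 on the same strand. Stat2 stood at 342, 838, 1225 and 850.3 CPM and 211, 255, 665 and 389.5 CPM. It was lower in 4 of 4 pairs and overlapped between groups, passing paired (−1.10 ± 0.23, adjusted p = 0.00918) but not unpaired (adjusted p = 0.0847). Irf7, which amplifies interferon production, ran 238, 1158, 1907 and 809 CPM and 29.1, 142, 1012 and 274 CPM. Its order over libraries was that of most effectors, with untreated replicate 1 low and number 3 high in each group (−2.14 ± 0.41 paired, adjusted p = 0.00671, and −1.50 ± 0.95, adjusted p = 0.232 unpaired). Irf2 (−1.20 ± 0.27, adjusted p = 0.0103) and Irf5 (−2.17 ± 0.57, adjusted p = 0.0183) fell in both fits.

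Over the 8 pathway lists, 107 genes were tested, of which 36 fell and 2 rose unpaired and 76 fell and 3 rose paired. Of all genes tested, 16.2% fell and 20.3% rose unpaired, and 20.8% and 21.2% paired, and the list counts here and above are to be read against those shares. Of 14 sensors and adaptors 8 fell unpaired and 10 paired, among them Dhx58 (−1.89 ± 0.47), Tlr9 (−2.32 ± 0.61) and Tlr7 (−3.36 ± 0.97), while the DNA sensor gene Aim2 did not pass (0.51 ± 0.28, adjusted p = 0.168). Of the 8 negative regulators 2 fell and 2 rose in both fits, close to the shares of all genes. Socs1 (−1.19 ± 0.35) and Ptpn6 (−1.23 ± 0.31) fell, Pias4 (0.87 ± 0.19) and Trim24 (0.78 ± 0.19) rose, and Ptpn11 did not pass (0.74 ± 0.29, adjusted p = 0.0761). Of 11 inducible GTPases 2 fell unpaired, Irgm1 (−2.67 ± 0.75) and Irgm2 (−1.97 ± 0.66), and 10 paired, among them Igtp, which did not pass unpaired (−1.65 ± 0.69, adjusted p = 0.0861). Of 10 genes whose products work with member enzymes 4 fell unpaired and 6 paired. Ppp1r15b, a regulator of eIF2α dephosphorylation, gave −1.16 ± 0.22 (adjusted p = 0.00564) and the RNA-editing enzyme gene Adar −1.50 ± 0.33 (adjusted p = 0.00921). A further 46 interferon-stimulated effectors outside the 34 had negative unpaired estimates throughout, with 14 falling unpaired, 37 paired and 0 rising in either. Examples are Parp11 (−2.06 ± 0.51), Zc3hav1 (−1.19 ± 0.31) and Znfx1 (−2.06 ± 0.54). Ly6e fell paired (−0.95 ± 0.25, adjusted p = 0.0194) but not unpaired (−0.80 ± 0.44, adjusted p = 0.174). Cxcl10, an interferon-inducible chemokine gene, was at 13.8, 127, 357 and 116 CPM and 138, 169.5, 184 and 109.9 CPM. It was higher with the drug in numbers 1 and 2 and lower in numbers 3 and 4. Cxcl10 passed in neither fit (−0.03 ± 0.70, adjusted p = 0.977, and 0.55 ± 0.65, adjusted p = 0.519 paired).

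**Figure D5:**
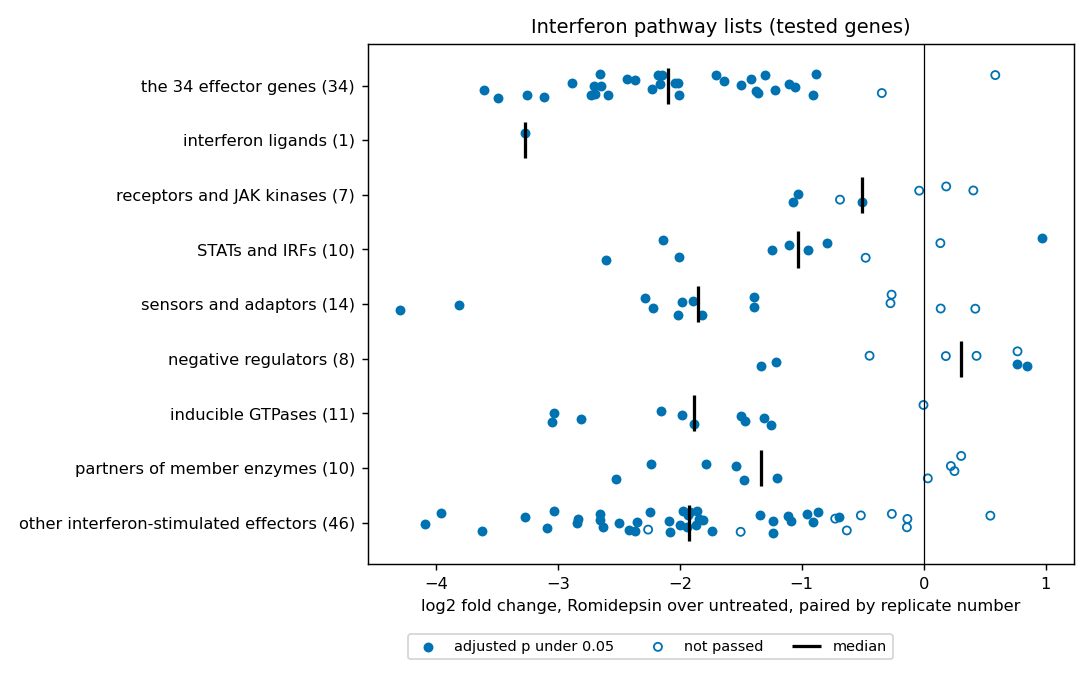
Log2 fold change in the fit paired by replicate number (x axis) for the 34 genes and the tested genes of each pathway list, with numbers tested in brackets; filled points had an adjusted p under 0.05 and black bars are medians. The medians of the 34 (−2.10), the sensors (−1.85), the GTPases (−1.88) and the other effectors (−1.93) lie left of 0 and that of the negative regulators (0.31) right of it.

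Summed levels of cell identity markers also differed between groups for some lists, and their counts are to be read against the shares of all genes above. All 15 myeloid marker genes were above 1 CPM in every library, and their summed level was 40814 to 46942 CPM in untreated and 14139 to 33253 CPM in treated cells, most of it Lyz2, with 1 of the 15 falling unpaired and 6 paired. B cell markers summed to 274 to 956 CPM and to 27.9 to 437 CPM, and 5 of 7 fell unpaired and 7 paired. Their sum was highest in number 2 of each group. Of the plasmacytoid dendritic cell markers, which typify the cells best known for interferon production, Siglech and Ccr9 stayed under 1 CPM in every library, and the list's sum of 510 to 1503 and 273 to 1076 CPM was mostly Bst2, itself a member. Others on that list were detected over the libraries: Tcf4 at 51.0 to 190 CPM, Spib at 6.75 to 39.1 CPM, Pacsin1 up to 3.56 CPM and Cox6a2 up to 1.82 CPM. T and NK cell markers summed to 4.74 to 24.9 and 2.81 to 5.91 CPM, with 1 of 3 tested lower unpaired and 0 paired, and the erythroid markers measured were all under 1 CPM. Stromal markers summed to 4.96 to 58.6 and 7.77 to 166 CPM, highest in number 2 of each group, with 0 of 5 tested called unpaired and 1 higher paired. Tumour epithelial markers summed to 4.93 to 177 and 16.2 to 55.9 CPM, nearly all Cdh1. The part of these cells in the effector results was not tested. On the first principal component of all tested genes, the untreated libraries lay at −77.3 to −50.6, treated replicate 3 at −1.17 and treated replicates 1, 2 and 4 at 50.3 to 105. Libraries held 12996892 to 23176949 counts, the most in untreated replicate 4.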

How the data were processed

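RNA sequencing of 4 untreated and 4 Romidepsin-treated samples was analysed from the deposited raw counts, whole-number reads per Ensembl gene that the authors tabulated for each library, as the file's values show. The submitters' processing notes list STAR 2.5.2a, FastQC and DESeq2, and the builds GRCm38 and mm10. For the counting tool, annotation, strand setting and filters, the sources used here give nothing. Of 26930 identifiers, 26881 matched a symbol. Totals were 12996892 to 23176949 counts, so a level of 1 CPM rests on few reads, and floors of 3 counts cover counting error only.

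Counts were fitted with edgeR 4.0.16 in R 4.3.3 (filterByExpr, TMM, robust quasi-likelihood test, Benjamini-Hochberg adjustment over 12852 genes, threshold 0.05), without pairing. The SE of a log2 fold change is its size divided by the square root of F. Deviations from the group means correlated at 0.525, 0.270, 0.457 and 0.171 within replicate numbers 1 to 4 and at most at 0.0467 between numbers. Every value within a number is above 0.1, so same-numbered libraries were treated as pairs, from the data and not from a label, and results of a replicate block are set beside the unpaired ones. Alternatives were DESeq2 size factors, library size, 20 housekeeping genes, other filters (none, or at least 10 CPM on average), limma-voom (limma 3.58.1), the Wald test of DESeq2 1.42.0 and leaving out libraries. Coordinates and exon lengths are from GENCODE on GRCm38 and promoters from RefSeq.

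The members and lists were chosen with earlier results of these data known, and rest on no independent evidence. All 34 members are named, and 2 genes of the pathway lists are counted in them but not reported here by name. Values in every library are given for members called unpaired (up to 12), the 5 highest per kilobase, the 4 with the smallest change, the 2 lowest and any that rose. In pathway lists the rule took up to 3 called genes of smallest p in the majority direction, 1 in the other, the uncalled gene of highest mean, and always Stat2, Irf9, Irf7, Ifnar1, Ifnar2 and Ifnb1. Values in every library of Ifit1, Ifit3, Ifit3b, Oas3 and Cmpk2, the genes Irf4, Trim24, Ube2l6, Cxcl10, Ifi202b and Trim12a, and the rule for neighbouring pairs were added after values were seen.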

Additional observations from a re-analysis of the deposited data

Results flagged for a closer look

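In 8 of the 80 groups of 4 libraries examined, 1 library stood far from the other 3 by Dixon's criterion. Chance meets it in about 1 in 20 groups if groups are independent and values normally distributed. These groups are unlogged CPM of genes measured in the same libraries, so that rate cannot be set against the 8. In 7 of these it was treated replicate 3, the highest treated library. Ifit3 was there at 433.9 CPM against 20.8 to 65.5 CPM in the other treated libraries, and Ifit3b at 112.9 CPM against 6.88 to 18.7 CPM. Eif2ak2 was at 98.56 CPM against 42.4 to 49.4 CPM. Mx1 was at 286.5 CPM against 66.0 to 99.2 CPM, and Mx2 at 42.49 CPM against 11.5 to 16.6 CPM. The regulator Irf9 was at 74.4 CPM against 26.5 to 33.8 CPM. Ifnb1 was at 0.7943 CPM against 0 to 0.0647 CPM. The remaining case was Ifnar1 in untreated replicate 4, the deepest library, at 290.7 CPM against 221 to 227 CPM in the other untreated libraries.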

How the results depend on the processing

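The 34 genes' calls depended on how the libraries were paired and which were used. Against 10 members lower, the count was 22 with the DESeq2 Wald test, 1 without a count filter (6.27% of all genes fell), 32 with the replicate block, 22 with the block and housekeeping scaling (1 higher, Rsad2), 30 with the block and library size alone (14.2%), and 25 without both libraries of number 3. With the block and both libraries of number 1, 2, 3 or 4 left out it was 28, 28, 31 and 28 (11.9%, 13.7%, 20.3% and 14.6%). Leaving out 1 library gave 1 to 31 members lower and a median log2 fold change of −2.83 to −1.48. All 10 unpaired calls were among the calls of every alternative that made at least 10.

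Pathway genes lower numbered 36, and 14 with housekeeping scaling, 15 without a filter, 56 with DESeq2, 76 with the block, 72 with the block and library size, 64 without number 3, 70, 68, 75 and 72 with the block less each number, and 10 to 78 leaving out 1 library. Pathway genes higher numbered 2, and 7 with library size, with or without the block, 15 with housekeeping scaling, with or without the block, 1 with the block less number 1 or 2, and 2 to 4 leaving out 1 library. Genes lower over the whole table numbered 2080, and 1368 with library size, 607 with housekeeping scaling, 990 with that and the block, and 1187 to 3077 leaving out 1 library. Genes higher numbered 2610, and 6085 with housekeeping scaling, 6134 with that and the block, 4275 with library size and the block, 1653 with the block less number 1, and 1793 to 3270 leaving out 1 library. Higher genes made 55.7% of calls, 74.0% with library size and 90.9% with housekeeping scaling, which moved the median of all genes to 0.31 and 0.75.

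Ifnar1 turned positive with library size (0.26, and 0.26 with the block), housekeeping scaling (0.67, and 0.70 with the block) and the block less number 1 (0.0538) or 4 (0.0281), and ranged from −0.17 to 0.09105 leaving out 1 library. Ifit2 was 0.10 with housekeeping scaling, 0.39 with that and the block, and −1.30 to 0.0855 leaving out 1 library, Rsad2 −0.10 to 0.88, and the ratio of Parp14 to Parp9 −0.2325 to 0.0809. The cause was not tested.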

Other observations

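Gene families beside the 34 members, picked after their values were seen, ran with them or apart from them. Of the Schlafen genes, interferon-inducible regulators of growth and translation, the 5 in the list of other effectors fell in the paired fit: Slfn1 (−4.09 ± 0.64, adjusted p = 0.00363), Slfn4 (−3.96 ± 0.89, adjusted p = 0.0115), Slfn5 (−3.63 ± 0.50, adjusted p = 0.00281), Slfn8 (−3.27 ± 0.56, adjusted p = 0.00602) and Slfn9 (−2.09 ± 0.34, adjusted p = 0.00392). Slfn8 had 0 counts in number 2 of both groups, so its fall rests on the other 3 pairs. Of these genes Slfn1 also passed unpaired (adjusted p = 0.0303). Among all genes tested, 20.8% fell paired and 16.2% unpaired. The relatives of Phf11d divided: Phf11a (−2.85 ± 0.48, adjusted p = 0.00441) and Phf11b (−2.63 ± 0.40, adjusted p = 0.00349) fell paired, while Phf11c gave −0.14 ± 0.25 (adjusted p = 0.679). Among relatives of Oas1a, Oas1g fell paired (−2.37 ± 0.39, adjusted p = 0.00418), whereas Oas1b (−0.63 ± 0.27, adjusted p = 0.098) and Oas1c (−0.26 ± 0.19, adjusted p = 0.291) did not pass. Gbp8 was the tested inducible GTPase that did not pass paired (−0.00 ± 0.29, adjusted p = 0.998).

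Ifi202b, a PYHIN gene related to Ifi204, and Trim12a, a relative of Trim30a, followed the replicate number. Ifi202b was at 126, 0, 416 and 0 CPM in untreated and 21.7, 0, 291 and 0 CPM in treated replicates 1 to 4. Trim12a was at 29.9, 0, 41.0 and 0 CPM and at 7.23, 0, 23.6 and 0 CPM. Both were detected in numbers 1 and 3 of each group and at 0 counts in numbers 2 and 4, where 3 counts would be 0.145 to 0.248 CPM. Xist stayed at or under 0.127 CPM and the Y-linked Ddx3y was at 68.0 to 89.6 CPM in all 8 libraries.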
